A study of Homo sapiens with 5 samples.

Results

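Of the 21113 TEAD4 peaks called in LX-2 cells, 382 (1.81%, Wilson 95% interval 1.64 to 2.00%) held 2 or more non-overlapping copies of the TEAD core ACATTCC, on either strand, within 100 bp of the summit. The core is the first 7 bases of the TEAD reporter site used in the study, and a match had to lie whole inside the window. Of these 382 peaks, 352 held 2 matches, 23 held 3, 2 held 4, 4 held 6 and 1 held 7, which makes 812 matches in all. A further 4467 peaks held exactly 1 match and 16264 held none. The peaks were chosen by sequence around the summit, and neither the signal value nor any other strength of a peak was used.

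The LX-2 line was derived from human hepatic stellate cells and stands here for their myofibroblastic state (MF-HSCs). TEAD4 ChIP-seq was made on chromatin from 3 replicates of LX-2 cells that received the solvent DMSO, with 2 input samples. The peaks come from replicates 1 and 3 together, as the authors left out replicate 2, and no values of single replicates were used here. TEAD4 binding in the presence of an OGT inhibitor was not analysed here, and 1 cell line cannot stand for stellate cells of different donors.

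TEAD proteins bind DNA through a TEA domain that reads the core and recruit the co-activators YAP and TAZ, which carry no DNA-binding domain of their own. When the Hippo kinases are inactive, YAP and TAZ enter the nucleus and TEAD target genes such as CCN1 and CCN2, which encode secreted matricellular proteins, are transcribed. Regulatory regions with neighbouring TEAD sites are known, and the reporter commonly used to read YAP activity carries its TEAD sites in tandem.

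The arrangements of the matches are best seen in the sequences themselves. They are given 5′ to 3′ from hg38 with the core or its complement GGAATGT in capitals and 10 bases to either side, and each is named by the protein-coding gene with the nearest transcription start site (TSS). The most frequent arrangement was a pair on the same strand with 2 bases between the cores, and the 6 of these peaks with the highest signal value are shown on the strand that carries the core as written above.
CGNL1 chr15:57356833-57356868 (+): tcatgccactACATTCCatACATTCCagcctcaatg
ITGA3 chr17:50028520-50028555 (+): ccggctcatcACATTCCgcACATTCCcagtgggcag
ABHD4 chr14:22614350-22614385 (+): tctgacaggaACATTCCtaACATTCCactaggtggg
IGF2BP1 chr17:49022616-49022651 (+): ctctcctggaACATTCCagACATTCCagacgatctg
PDHB chr3:58435139-58435174 (+): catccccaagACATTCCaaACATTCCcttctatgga
CRYBA4 chr22:26681579-26681614 (-): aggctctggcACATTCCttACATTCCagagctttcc

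The spacer differed between these loci. Among the 22 pairs of this kind the most frequent spacer, TC, was found in 4, the base after the second core was A in 13 of 22, and 1 pair had repeated sequence around its cores. The pair upstream of ITGA3, which encodes an integrin subunit, and the pair upstream of CGNL1, which encodes a junction protein, lay between genes, and that of IGF2BP1, which encodes an RNA-binding protein, lay in an intron of the gene.

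Pairs on opposite strands were less frequent. Those with at most 10 bases between the matches and the highest signal values are shown first with the core on the left.
PTPN1 chr20:50541020-50541059 (+): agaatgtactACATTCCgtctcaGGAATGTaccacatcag
ZNF462 chr9:106799356-106799399 (+): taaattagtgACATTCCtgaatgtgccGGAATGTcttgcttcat
PLEKHG4B chr5:82287-82330 (+): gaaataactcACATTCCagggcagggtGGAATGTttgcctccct
JAG1 chr20:10708978-10709012 (+): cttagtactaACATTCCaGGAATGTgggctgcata

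The same is shown for pairs with the complement on the left.
BCL10 chr1:85329133-85329169 (+): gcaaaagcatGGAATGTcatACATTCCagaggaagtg
FAM117A chr17:49775644-49775683 (+): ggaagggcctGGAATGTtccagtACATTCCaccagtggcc
CAV2 chr7:116477081-116477117 (+): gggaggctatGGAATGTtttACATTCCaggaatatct
MMS22L chr6:97697595-97697634 (+): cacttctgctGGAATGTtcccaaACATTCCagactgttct

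The pair at PTPN1, which encodes a protein tyrosine phosphatase, lay in an intron of that gene in the peak with the highest signal value of all 382. The pair named for CAV2 lay in an intron of CAV2, which encodes a caveolin. The pair named for JAG1, which encodes a Notch ligand, lay in an intron of a lncRNA.

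The 4 peaks with 3 or more matches and the highest signal values are shown next. Those named for C18orf63 and PLAC8 had all cores on the same strand, and those for CALD1 and ST7 had cores on both strands.
C18orf63 chr18:74316971-74317097 (+): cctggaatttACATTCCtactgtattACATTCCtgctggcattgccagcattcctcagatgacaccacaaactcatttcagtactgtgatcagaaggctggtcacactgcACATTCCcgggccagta
PLAC8 chr4:83207919-83207994 (+): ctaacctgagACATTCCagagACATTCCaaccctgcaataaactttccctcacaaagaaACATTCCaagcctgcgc
CALD1 chr7:134742426-134742491 (+): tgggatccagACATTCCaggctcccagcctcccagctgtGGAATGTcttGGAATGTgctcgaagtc
ST7 chr7:117005108-117005205 (+): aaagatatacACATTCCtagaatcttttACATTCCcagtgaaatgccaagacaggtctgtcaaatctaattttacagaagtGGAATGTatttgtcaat

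At CALD1, which encodes the actin-binding protein caldesmon, the summit lay 1816 bp upstream of a TSS and 2 of the 3 cores were on the minus strand. In the peak in an intron of ST7, the third core faced the other 2.

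A second match was more frequent at summits than in sequence nearby. In windows of the same width centred 2000 bp to either side, 27 of 42225 held 2 or more matches (0.0639%, 0.0440 to 0.0930%), and the odds ratio of the summit windows was 28.8 (95% interval 19.3 to 42.96, n = 21113 and 42225 windows, p = 5.87e-61, logistic model with peaks of a merged region as a cluster). This includes the higher frequency of single matches at summits. Its size depended on the choice of core and peaks, from 13.9 with a 6-base core to 53.7 among peaks above the median signal. Among windows that held at least 1 match, 7.88% (382 of 4849) of summit windows and 2.27% (27 of 1190) of flanking windows held another, an odds ratio of 3.68 (2.46 to 5.52, n = 4849 and 1190, p = 2.73e-10), which was 5.89 among peaks above the median signal.

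The 382 peaks gave 430 neighbouring pairs of matches, of which 281 (65.3%, 60.7 to 69.7%) had both cores on the same strand. Opposite strands made up the rest, with the core on the left in 79 pairs and the complement on the left in 70. An equal share of both orientations would give 50%, and the same-strand share differed from it (exact binomial test, p = 1.93e-10). Pairs of 1 peak share matches and are not independent, so the 352 peaks with exactly 2 matches were also counted, and 214 of these (60.8%, 55.6 to 65.7%) had a same-strand pair. The flanking windows held 31 pairs, too few for a narrow interval, with a same-strand share of 64.5% (46.9 to 78.9%).

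The gap between neighbouring matches ran from 0 to 144 bp with a median of 32 bp. It was 0 to 10 bp in 80 pairs, 11 to 20 bp in 48, 21 to 50 bp in 170, 51 to 100 bp in 110 and above 100 bp in 22. The median was 30 bp for same-strand pairs, 48 bp for opposite pairs with the core on the left and 35 bp for those with the complement on the left. Same-strand pairs made up 57 of the 80 pairs with gaps up to 10 bp and 224 of the 350 with larger gaps, and this difference did not pass the test (odds ratio 1.39, 0.820 to 2.37, Fisher's exact test, p = 0.243).

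Single gaps stood out among same-strand pairs, with 22 pairs at 2 bp, 19 at 22 bp, 15 at 46 bp and 13 at 32 bp. They were picked from the counts, so no test is given. The 22 pairs at 2 bp lay in 22 peaks and none was alike in sequence to another. The 31 flanking pairs are too few to compare the frequency of a single gap with. The signal values of the 22 pairs at 2 bp ran from 37.8 to 422.6 with a median of 107. Of these 22 peaks 18 lay above the median of the whole list, as did 262 of all 382 (68.6%). These shares were not compared by a test, and 22 peaks are few.

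The pairs at 22 and 46 bp were of another kind. Neighbouring matches were counted as repeated where at least 14 of the 20 bases around them were identical, which held for 15 of 19 pairs at 22 bp and 13 of 15 at 46 bp. The 19 pairs at 22 bp came from 7 peaks, in several of which the core recurred at a constant step. A peak in an intron of CLPTM1L held 6 cores on the plus strand with 5 gaps of 22 bp, a second peak there also held 6, and a peak whose nearest gene was PLCB4 held 7 on the minus strand with each gap at 22 bp. A peak near UBR4 held 6 cores with each gap at 15 bp. These 4 peaks are named after their values were seen. The 15 pairs at 46 bp instead came from 15 peaks, and 14 of them, on 9 chromosomes, resembled at least 1 other at 70% or more of the bases outside the cores. At 32 bp the same held for 9 of 13 pairs. Only pairs with the same gap were compared. The PLAC8 pair at 31 bp, which reads much like the 32-bp sequences below, was therefore not counted. The strongest of the alike pairs at 46 and 32 bp are shown, chosen after the values were seen.
SLC26A9 chr1:205889857-205889936 (-): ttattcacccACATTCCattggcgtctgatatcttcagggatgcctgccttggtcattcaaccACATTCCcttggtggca
SERTAD4 chr1:210188365-210188444 (+): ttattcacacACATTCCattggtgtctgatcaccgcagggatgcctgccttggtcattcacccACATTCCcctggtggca
NRXN3 chr14:79596636-79596701 (-): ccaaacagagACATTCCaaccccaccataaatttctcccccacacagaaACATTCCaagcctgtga
RERE chr1:8626649-8626714 (+): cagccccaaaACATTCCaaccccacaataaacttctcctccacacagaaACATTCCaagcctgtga

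Over all gaps, 68 of 430 pairs (15.8%) had repeated flanking sequence, 66 of them on the same strand. In the windows 2000 bp away, 7 of 31 pairs had it too. The 68 pairs lay in 41 peaks, 13 of which were among the 30 peaks with 3 or more matches. Without these 41 peaks, which was tried after the values were seen, the same-strand share was 59.2% (54.1 to 64.2%, exact binomial test, p = 0.000573). Same-strand pairs were then more frequent at gaps up to 10 bp than at larger ones (odds ratio 1.94, 1.11 to 3.38, Fisher's exact test, p = 0.023). At gaps under 10 bp, however, the bases compared include the spacer and part of the other core, so repeats are harder to find there. Leaving out repeated pairs took same-strand pairs from 57 to 53 at gaps up to 10 bp and from 281 to 215 over all gaps. No conclusion on short gaps is therefore drawn from this odds ratio. A further 15 same-strand pairs had no repeated flanking sequence but resembled another pair with the same gap. Without pairs of either kind, the same-strand share was 57.6% (52.4 to 62.7%, 200 of 347 pairs). How reads were assigned to repeated sequence was not tested.

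Signal values were higher in peaks with more than 1 match. The signal value is the peak caller's measure of the strength of a peak, and its median was 94.9 (quartiles 60.7 and 161.2) in the 382 peaks, 81.3 (53.3 and 139) in peaks with 1 match and 64.6 (44.6 and 105.8) in peaks with none. On the log2 scale, the mean difference was 0.23 (0.12 to 0.33, SE 0.053, p = 1.95e-05, n = 382 and 4467 peaks) against 1 match and 0.60 (0.50 to 0.71, p = 2.01e-31, n = 16264) against none, which are 1.17-fold and 1.52-fold. Among peaks above the median signal alone, the differences were 0.10 and 0.23, still past the threshold. The distributions overlapped over most of their range, with 26.3 to 721.7 in the 382 peaks and 6.58 to 859.9 in those with 1 match. The 30 peaks with 3 or more matches had a median of 80.5, and the peak with 7 matches had a signal value of 37.4.

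The share of peaks with 2 or more matches was 0.758% (0.537 to 1.07%) in the lowest of 5 equal groups of peaks by signal value and 3.10% (2.62 to 3.67%) in the highest. Among peaks with at least 1 match, it was 5.13% (3.66 to 7.15%) and 9.55% (8.10 to 11.2%). Of the 100 peaks with the highest signal values, 7 held 2 or more matches and 32 held 1. Same-strand pairs with gaps up to 10 bp had a median signal value of 90.1 and those with larger gaps 95.8, and on opposite strands the medians were 73.7 and 90.03.

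The matches lay around the summit. In the 382 peaks, the centre of the nearest match was at a median of 13.5 bp from the summit and within 50 bp in 363 peaks (95.03%), while the farthest match had a median of 43 bp. Peaks with 1 match had theirs at a median of 17 bp, a comparison in which the nearest of several matches lies closer by construction. In 233 of the 352 peaks with 2 matches (66.2%, 61.1 to 70.9%) the summit lay inside the span of the pair. Matches were sought in a window centred on the summit, so pairs with wide gaps hold it by construction. No share to compare with was computed. The summit was nearer to the midpoint of the pair than to the centre of either core in 139 of the 352. Of the peaks just inside the 100-bp limit, 18 would not have been included at 90 bp, with a median signal value of 105.4, and 30 more would have been included at 110 bp, with a median of 103.

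The base after the core was A, which completes the 8-base reporter site, in 400 of the 812 matches (49.3%, 45.8 to 52.7%) and in 1814 of the 4467 single matches (40.6%, 39.2 to 42.1%), an odds ratio of 1.42 (1.19 to 1.70, n = 812 and 4467 matches, p = 0.000128). In the flanking windows, A followed the core in 36.5% of 1221 matches. C preceded the core in 41.5% of the 812 matches, 42.2% of the single matches and 29.2% of those in flanking windows. At least 2 whole 8-base sites were found in 102 of the 382 peaks, 1 in 172 and none in 108.

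AP-1 factors are dimers of FOS and JUN proteins that often share regulatory regions with TEAD. The AP-1 motif, TGACTCA or TGAGTCA, lay in the window of 25.4% of all peaks, and in that of 56 of the 382 (14.7%, 11.5 to 18.6%), 19.97% of peaks with 1 core and 27.1% of peaks with none. The odds ratio of the 382 peaks was 0.689 (0.514 to 0.922, n = 382 and 4467 peaks, adjusted p = 0.0433) against 1 core and 0.461 (0.347 to 0.613, adjusted p = 7.28e-07) against none. The first of these missed the threshold in 4 of 10 alternatives, among them without repeated flanking sequence (0.738, n = 341 peaks, adjusted p = 0.12) and with GC share as a covariate (0.682, n = 382, adjusted p = 0.0703). Where both motifs were present, the gap between the AP-1 motif and the nearest core had a median of 27 bp.

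A TSS of a protein-coding gene or lncRNA lay within 2.5 kb in 25.2% of all peaks and in 74 of the 382 (19.4%, 15.7 to 23.6%), against 25.7% of peaks with 1 core (odds ratio 0.695, 0.531 to 0.912, n = 382 and 4467, adjusted p = 0.0433) and 25.1% of peaks with none (0.715, 0.549 to 0.932, adjusted p = 0.0183). The difference from peaks with 1 core missed the threshold in 8 of 12 alternatives, among them other widths of the window (0.790 at 50 bp and 0.784 at 150 bp). It was also missed without repeated flanking sequence (0.721, n = 341 peaks, adjusted p = 0.12) and with GC share as a covariate (0.728, n = 382, adjusted p = 0.0994). In GENCODE, the summit lay in an intron of a protein-coding gene in 172 of the 382 peaks (45.0%), between genes in 128 (33.5%), in an intron of a lncRNA in 57 (14.9%), in a UTR in 10 (2.62%) and in a coding exon in 5 (1.31%). The shares were similar in peaks with 1 core (48.3, 31.8, 12.4, 3.22 and 1.12%). In peaks with none they were 48.1, 31.3, 12.9, 3.55 and 0.965%. These places were therefore much those of the list as a whole. The median GC share was 45.3% in the 382 peaks and 45.3% in those with 1 core.

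The other 5 features did not pass the test against peaks with 1 core, and 3 of them passed it against peaks with none. The highest IDR score, 1000, was held by 76.1% of all peaks and by 84.8% of the 382 (odds ratio 1.31, 0.977 to 1.74, n = 382 and 4467, adjusted p = 0.167), with an odds ratio of 1.91 (1.44 to 2.53, adjusted p = 2.50e-05) against none. The RUNX motif TGTGGTT was found in 9.53% of all peaks and 9.95% of the 382 (1.18, 0.829 to 1.67, n = 382 and 4467, adjusted p = 0.421), and the E-box CAGATG in 16.7% and 13.9% (0.780, 0.577 to 1.05, adjusted p = 0.183). Against none, the odds ratios were 1.02 for RUNX and 0.808 for the E-box, with adjusted p = 0.918 and 0.180 (n = 382 and 16264). The core read backwards, CCTTACA, served as a control of the same bases and was found in 2% of all peaks and 3.66% of the 382 (1.52, 0.863 to 2.68, n = 382 and 4467, adjusted p = 0.206). Against peaks with none, this control itself passed the test (2.02, 1.17 to 3.495, n = 382 and 16264, adjusted p = 0.0183), at the same adjusted p as a TSS within 2.5 kb. Peaks that overlapped another peak made up 15.9% of the list and 9.69% of the 382 (0.885, 0.603 to 1.30, n = 382 and 4467, adjusted p = 0.531), with 0.508 (0.350 to 0.736, adjusted p = 0.000814) against none.

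The peaks with the highest signal values were spread over the genome. The highest was the peak in an intron of PTPN1 at 721.7, which ranked 17 in the whole list. It was followed by peaks between genes whose nearest genes were TRIP13 (662.9), a gene of the spindle checkpoint, ZNF462 (627.8) and SLX9 (620.3). The peak in an intron of C18orf63 had 600 and 3 cores. A peak in a UTR of COL4A2, which encodes a chain of basement membrane collagen, had 598.1 with 2 cores on opposite strands 17 bp apart, and a peak in a UTR of SH3TC2 had 567.4. The next were those nearest to PLEKHG4B (542.3), CNTNAP2 (514) and ALDH1L1 (483.8). Of these 10 peaks, that named for ZNF462 also held an AP-1 motif.

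Other peaks with 3 or more cores had RERE (229.8), NUBPL (171.3), CD70 (170.4), C2CD3 (148.9), SYNE1 (129.2) and ZNF675 (126.8) as nearest genes. In C2CD3, SYNE1 and ZNF675 the sequence around neighbouring cores was repeated within the peak, and in RERE, NUBPL and CD70 it was not. The RERE pair at 32 bp nonetheless resembled pairs at other loci, as shown above.

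Genes were counted where a peak with 2 or more cores lay within 50 kb of a TSS, as a description with no test. Such a peak was found for 440 of 20020 protein-coding genes (2.198%), and any TEAD4 peak for 11070 (55.3%). Of genes with any peak, 3.975% had such a peak. Of 26 YAP-TEAD target genes, 6 had one and 24 had any peak. CCN2 had 2, with cores on opposite strands 0 and 74 bp apart and signal values of 42.97 and 42.76. CCN1 had 1 with 3 cores (45.8), in an intron of the neighbouring gene DDAH1. The others were NUAK2 (141.2), a kinase gene, RBMS3 (100.4), TGFB2 (81.3), which encodes a TGF-β ligand, and ASAP1 (41.8). These 6 genes had several TEAD4 peaks within 50 kb, from 3 for NUAK2 to 12 for ASAP1. A gene with more peaks has more occasions for such a peak, and the counts were not adjusted for this.

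Of 13 contractile and cytoskeletal genes, CALD1 (303.1) and TPM2 (247.6), which encodes a tropomyosin, had a peak with 2 or more cores within 50 kb, and 12 had any peak. Of 9 AP-1 subunits, FOSL2 had 1 (74.1) and all 9 had any peak. None was found for the 20 fibrillar collagen and matrix genes, 17 of which had any peak, for the 11 growth factor receptor genes (10 with any peak) or for the 11 TEAD, YAP and VGLL genes (8 with any peak). Of 10 hepatocyte genes, 1 had any peak and none had a peak with 2 or more cores. COL4A2 was not on the list of matrix genes.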

How the data were processed

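TEAD4 ChIP-seq of LX-2 cells was mapped to hg38 by the authors, who compared replicates by IDR with the ENCODE pipeline and kept replicates 1 and 3. The deposited list gives for each peak a score (scaled IDR), a signal value, a −log10 q-value and a summit offset, all made by the authors on both replicates together. What each column holds was inferred from its place and values. The peak caller for TEAD4 is not given in the sources used here. The depth per sample is unknown, and Wilson intervals cover counting error only. All 21113 peaks fitted the chromosome lengths of the hg38 reference.

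The members and lists were chosen with earlier results of these data known. Cores on either strand were sought in the windows at the summit and 2000 bp to each side, and 1 flanking window without sequenced bases was left out. No match was shared between peaks. The log2 signal value was compared by a linear model and 7 yes/no features by logistic models over all peaks, with standard errors clustered by merged region (19426 regions), two-sided Wald tests and Benjamini-Hochberg adjustment over the 7 features at 0.05. Neighbouring peaks are not independent, and p-values are therefore approximate. Genes and TSSs came from GENCODE release 44. Named genes were the nearest of the 10 peaks with the highest signal value, of up to 10 peaks with 3 or more cores, and listed genes with such a peak within 50 kb. Named sequences followed the most frequent spacing, short opposite-strand pairs and peaks with 3 or more cores. No sequence on chromosome 8 or with over 30 bases in a UTR is shown. On simulated data, 2000 of 2000 planted pairs were recovered, and an odds ratio of 2 was returned as 2.04. Python 3.11.15 was used with statsmodels 0.14.6, pysam 0.24.0, scipy 1.17.1, pandas 2.3.3, matplotlib 3.10.9 and numpy 2.4.6.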

Additional observations from a re-analysis of the deposited data

How the results depend on the processing

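Of 133 recomputed values over 14 results, 112 kept their direction and side of the threshold. The following results kept both under every alternative run for them. The signal value difference was 0.10 to 0.32 on the log2 scale against 1 core and 0.23 to 0.70 against none. The odds ratio of summit against flanking windows was 13.9 to 53.7 for 2 or more matches. For a second match given a first, it was 2.84 to 5.89. The same-strand share was 57.5 to 70.4%, and the odds ratio of A after the core was 1.34 to 1.50. The direction changed in 5 values of results that had not passed the test: the highest IDR score among peaks above the median signal (0.730), RUNX with a 6-base core (0.967), overlapping peaks above the median (1.03) and with the 8-base site (1.48), and same strand by gap with the 8-base site (0.975). For AP-1 against 1 core, the threshold was missed with a window of 50 bp (0.566), the 8-base site (0.654), GC share (0.682) and without repeated flanking sequence (0.738). For a TSS within 2.5 kb it was missed with windows of 50 bp (0.790) and 150 bp (0.784), the highest IDR score only (0.717), above the median signal value (0.772), the 8-base site (0.635), GC share (0.728), a distance of 10 kb (0.779) and without repeated flanking sequence (0.721). The threshold was newly passed by the highest IDR score with the 6-base core (1.535), the reversed core at 150 bp (1.755), and same strand by gap with the 6-base core (1.57) and without repeated flanking sequence (1.94). The cause was not tested. Odds ratios of features against peaks with no core are not reported for the alternatives, so how they depend on the processing is not shown. The number of peaks was 230 at 50 bp, 497 at 150 bp, 1849 with the 6-base core and 101 with the 8-base site. The removal of repeated flanking sequence was chosen after seeing the data. The planned comparison of soft-masked sequence was not run, as the sequence used here is in upper case only. No paired analysis was possible because replicates 1 and 3 share 1 list, so no replicate could be left out either.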
